A study of Sus scrofa with 40 samples.

Results

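HCG11 is known in human as a gene of the HLA complex group that gives an RNA with no protein product. It lies in the extended part of the major histocompatibility complex (MHC), among genes for butyrophilins, zinc finger proteins and HFE, beside the classical region that holds the genes of antigen presentation. RNAs of this kind act, where a function is known, as RNA molecules, and no function of the pig transcript in muscle is taken as known here. The array held 2 probes of the contig BQ598890.1, to which the symbol HCG11 was given, among 15198 gene probes of 14104 contigs. All probes of the contig were taken. The symbol comes from the study's list of probes higher in LW pigs and could not be checked, as the RefSeq table of pig genes held 0 entries for HCG11 or the contig. What is said of HCG11 and its neighbours rests on this symbol. The contig was selected on measured values of these same pigs, namely the lower log2 ratio of probe BQ598890.1_2149 in B than in LW pigs and the pigs that lay far from their group. The breed difference and the outlying pigs are therefore described without a test, and tests of HCG11 were kept to the housing system, its interaction with breed, and one probe against the other.

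RNA of Longissimus muscle (LM) was measured in 40 castrated male pigs, 20 of the Basque breed (B), a local breed with much fat, and 20 Large White (LW), a lean breed of the modern industry. In each breed, 10 pigs were kept in a conventional system (C, slatted floor indoors) and 10 in an alternative system (A, indoor bedding with access to the outside). Pigs were slaughtered near 145 kg of live weight, which B pigs reached at an older age, so that breed and age cannot be told apart. The paper counts feeding among the confounded effects too, since feed was equal for both breeds at any given weight. According to the methods 2 pigs of each litter were taken and placed in either the C or the A system. Littermates can thus lie on both sides of the housing comparison. Litters are not in the sample labels, so housing was not compared within litters, and pigs were treated as independent. On every array, RNA of 1 pig was labelled with Cy3 and a pool of RNA of all 40 pigs with Cy5, and no dyes were swapped. A log2 ratio of 0 is thus the level of the pool after each array was centred on its median. The probes of the muscle genes ACTA1 (skeletal actin), ATP2A1 (calcium pump of the sarcoplasmic reticulum), MYH1 (fast myosin heavy chain) and NEB (nebulin) were well above background in the pig channel on all 40 arrays.

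The arrays of LW A pig 18 and B A pig 15 stood apart over the 12222 tested probes, by different measures. The array of LW A pig 18 had a mean correlation of -0.13 with the other arrays, and correlations between any 2 arrays ranged from -0.34 to 0.83. The mean correlation of B A pig 15 was 0.615, within the range of the other arrays (0.414 to 0.649). Without both arrays, correlations between any 2 arrays ranged from 0.21 to 0.83. The methods state the dyes, so the direction of each ratio was kept. Pig 15 of the B A group was far below its group on 1440 probes and LW A pig 18 far above its group on 1434 probes by the gap rule of Dixon, while each of 36 other pigs was far below its group on 4 to 391 probes and far above it on 8 to 245. Their scanner values also differed from the log2 ratios that the authors deposited for the same pigs in a series matrix. With each probe centred over the pigs, the 2 sources correlated with r = 0.35 for B A pig 15 and 0.475 for LW A pig 18, and with 0.85 to 0.95 for the other 38 arrays. The fitted HCG11 differences, the B A group and the spread within groups are also given without one or both of these arrays. For HCG11, LW A pig 18 lay within its group, with log2 ratios of 0.60 on BQ598890.1_2149 and 0.63 on BQ598890.1_2069.

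Both probes are 60 bases long with 35% of G and C. They are printed as the scanner output writes them, since all values below rest on them, with the longest stretch found in both (6 bases) in capitals.
BQ598890.1_2149: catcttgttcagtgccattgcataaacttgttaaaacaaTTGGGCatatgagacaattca
BQ598890.1_2069: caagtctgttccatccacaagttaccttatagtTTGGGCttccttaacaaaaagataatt
The probes thus do not cover the same bases. With any other gene probe of the array, BQ598890.1_2149 shared at most 12 bases on the same strand and 13 on the opposite strand, and BQ598890.1_2069 at most 12 on either. Each probe was well above background in both channels on all 40 arrays, and no spot of either was saturated or marked as an outlier by the scanner software.

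HCG11 was lower in B than in LW pigs on both probes, apart from 1 pig of each breed. For BQ598890.1_2149, log2 ratios ran from -2.28 to 0.55 with a median of -1.62 in B C pigs (mean -1.41 ± 0.76, SD, n = 10). They ran from -2.11 to -0.16 with a median of -1.46 in B A pigs (mean -1.37 ± 0.55, SD, n = 10, and -1.50 ± 0.37, n = 9, without pig 15). In LW C pigs the range was 0.12 to 1.60 and the median 0.35 (mean 0.59 ± 0.51, SD, n = 10). In LW A pigs the range was -2.09 to 1.43 and the median 0.37 (mean 0.34 ± 0.96, SD, n = 10). The order of the means was thus B C, B A, LW A and LW C, and neither the B groups nor the LW groups differed from each other by more than the SD within a group. In all, 19 of 20 B pigs were below the pool and 19 of 20 LW pigs above it. The B count includes B A pig 15, which lay above the pool in the series matrix. There it was at 0.33 on BQ598890.1_2149 and 0.34 on BQ598890.1_2069. The LW count includes LW A pig 18, which would lie below the pool if the sign of its ratios were turned. In the series matrix this pig was at 0.57 on BQ598890.1_2149 and 0.47 on BQ598890.1_2069.

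For BQ598890.1_2069 the order of the groups was the same. B C pigs ranged from -2.22 to 0.43 with a median of -1.53 (mean -1.33 ± 0.72, SD, n = 10), and B A pigs from -2.28 to -0.33 with a median of -1.28 (mean -1.28 ± 0.51, SD, n = 10, and -1.39 ± 0.41, n = 9, without pig 15). LW C pigs ranged from 0.054 to 1.37 with a median of 0.21 (mean 0.47 ± 0.47, SD, n = 10), and LW A pigs from -1.84 to 1.19 with a median of 0.26 (mean 0.26 ± 0.83, SD, n = 10). The pigs on the far side of the pool from their breed were the same ones on both probes. In the values used here, these were B C pig 2, the single B pig above 0, and LW A pig 19, the single LW pig below 0.

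**Figure D1:**
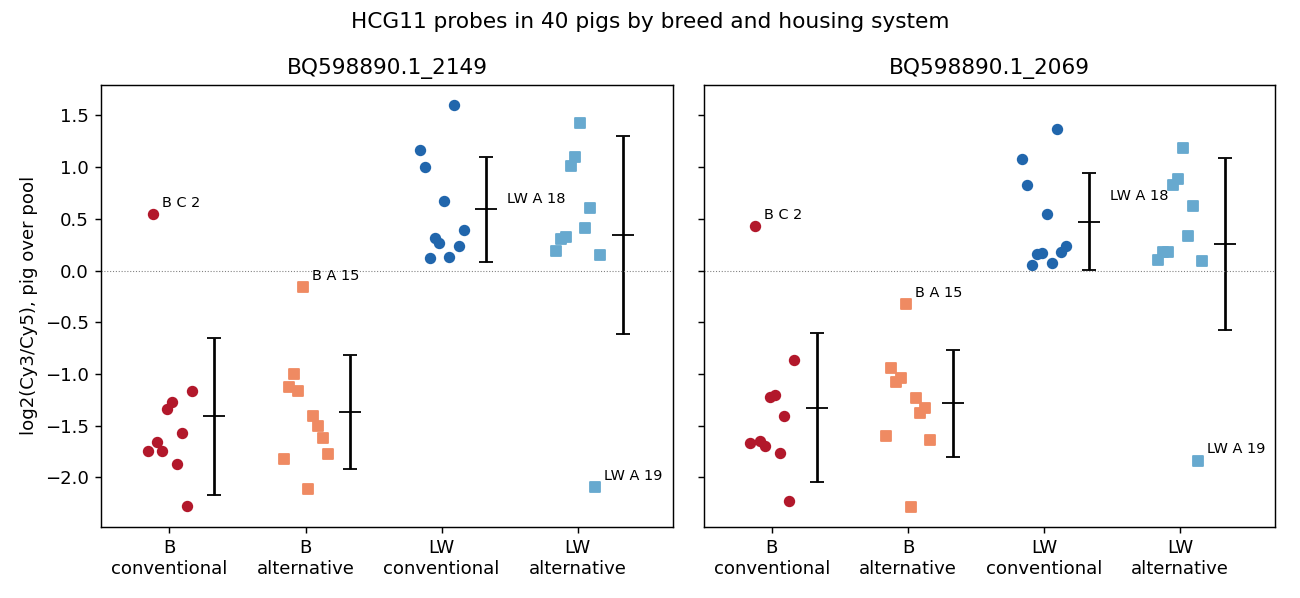
Log2 ratio of pig over pool (y axis) for each of 40 pigs on the HCG11 probes BQ598890.1_2149 (left) and BQ598890.1_2069 (right), by breed and housing system (x axis). Each point is 1 pig, and the bars give the mean ± SD of 10 pigs. On both probes B C pig 2 lies among the LW pigs and LW A pig 19 among the B pigs.

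In the limma model with breed, housing system, their interaction and slide, the difference of B minus LW was -1.86 (SE 0.23) on BQ598890.1_2149 and -1.68 (SE 0.21) on BQ598890.1_2069, that is, 3.63-fold and 3.20-fold lower in B. These differences chose the contig and carry no test. For background, 21.2% of the tested probes passed a BH adjusted P value of 0.05 between breeds. Without the outlying pigs the differences were -2.20 and -1.98, and without the arrays of B A pig 15 and LW A pig 18 they were -1.92 and -1.71. Among markers, 1 of 4 muscle probes, 1 of 3 connective tissue probes and 0 of 2 blood probes passed as lower in B. All of them come from the list of probes higher in LW pigs, so their direction is no independent evidence. Their values are given at the end, and their part in the HCG11 difference was not tested. Fewer cells of a type that holds the transcript and less of it per cell cannot be told apart in whole muscle.

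The difference was found on each of the 7 slides, all of which held both breeds. Slides held few pigs of a breed, and slide 2 held 1 B and 1 LW pig. On BQ598890.1_2149, B minus LW within a slide ranged from -2.79 to -0.34. The smallest difference was on slide 4, which held 4 B and 2 LW pigs, LW A pig 19 and B A pig 15 among them. Without both outlying pigs the range was -2.79 to -1.72. Within the 3 scan days the difference ranged from -2.17 to -1.42 on this probe and from -1.96 to -1.29 on BQ598890.1_2069.

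The distance of the outlying pigs from the rest of their groups was of the size of the breed difference without them (-2.20 and -1.98), slightly under it for B C pig 2 and above it for LW A pig 19. B C pig 2 had a log2 ratio of 0.55 on BQ598890.1_2149, compared with -1.63 ± 0.34 in the other B C pigs (SD, n = 9), a difference of 2.17 (4.51-fold). On BQ598890.1_2069 its value was 0.43, compared with -1.52 ± 0.39 (SD, n = 9), a difference of 1.95. Its values were close to the medians of the other LW pigs, 0.39 and 0.24. LW A pig 19 had -2.09 on BQ598890.1_2149, compared with 0.61 ± 0.46 in the other LW A pigs (SD, n = 9), a difference of -2.70 (6.52-fold). On BQ598890.1_2069 it had -1.84, compared with 0.49 ± 0.40 (SD, n = 9), a difference of -2.33. These folds depend on how background is handled. On BQ598890.1_2149 the fold of B C pig 2 ranged from 3.59 without background correction to 7.18 with Agilent's processed signals, and that of LW A pig 19 from 4.54 to 17.1 (6.89 and 17.0 in the series matrix). On BQ598890.1_2069 the ranges were 3.34 to 4.93, the latter with plain subtraction, and 4.04 to 7.77. With each of these treatments B C pig 2 lay above the mean of the rest of its group and LW A pig 19 below. In the values used here, LW A pig 19 ranked 3 of 40 from the lowest pig on BQ598890.1_2149, below 18 of the B pigs.

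Without these pigs the breeds did not overlap on either probe, with the direction of all ratios kept. On BQ598890.1_2149 the other 19 B pigs lay between -2.28 and -0.16 and the other 19 LW pigs between 0.12 and 1.60. The lack of overlap rests on the direction of LW A pig 18 (0.60 and 0.63 on the respective probes). With the sign of its ratios turned, this pig would lie below B A pig 15 on both probes, and the breeds would overlap. The B pig nearest to the LW pigs was B A pig 15 (-0.16 and -0.33 on the respective probes), whose array stood apart as described above, and the next B pig lay at -0.998. In the series matrix, which differs from the scanner values for this array, B A pig 15 was at 0.33 and 0.34, with B C pig 2 at 0.75 and 0.65 and LW A pig 19 at -3.14 and -2.15. Over the same 38 pigs, with the direction of all ratios kept, 8 of the 12222 tested probes (0.0655%) had no overlap of the breeds, the HCG11 probes among them. Both HCG11 probes belong to this count through the breed difference and the pigs by which the contig was chosen, so nothing is read from it.

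The signals of the pool varied little beside those of the pigs, and the outlying values lay in the pig channel. On BQ598890.1_2149 the Cy5 mean signal ranged from 618 to 956 over the 40 arrays, with 778 for B C pig 2 and 699 for LW A pig 19. The Cy3 mean signal was 571 for B C pig 2, where the other B pigs ranged from 80.5 to 506 with a median of 131. The 506 was that of B A pig 15, within the range of the LW pigs, and the next B pig had 219. The Cy3 mean signal was 90.6 for LW A pig 19, where the other LW pigs ranged from 401 to 1447 with a median of 563. On BQ598890.1_2069 the Cy3 mean signal was 801 for B C pig 2 and 158 for LW A pig 19, beside medians of 214 in the other B pigs and 813 in the other LW pigs. The local Cy3 background of the first probe was between 37.5 and 48, nearest to the signal of the lowest pigs. The breed difference of this probe ranged from -2.46 with Agilent's processed signals to -1.58 without background correction.

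**Figure D2:**
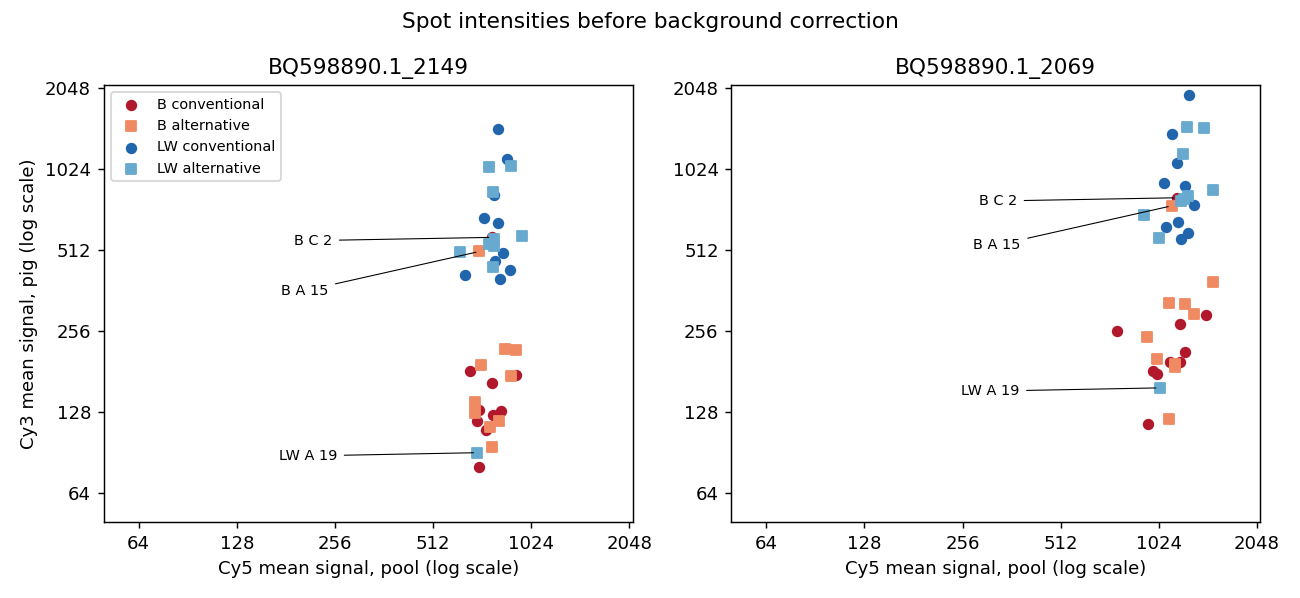
Mean spot signal of the pig (Cy3, y axis) against that of the pool (Cy5, x axis) on log scales, before background correction, for BQ598890.1_2149 (left) and BQ598890.1_2069 (right). Each point is 1 of 40 pigs. The pool signal of BQ598890.1_2149 stays between 618 and 956, and the pig signal spans 80.5 to 1447.

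The outlying pigs had the profile of their labelled breed on other probes. For each pig, the 100 probes that best separated the breeds in all the other pigs were taken, HCG11 left out, and the probes on which the pig was nearer to the B mean than to the LW mean were counted. B C pig 2 was nearer to the B mean on 93 of 100 probes, where other B pigs ranged from 81 to 98. LW A pig 19 was nearer to the B mean on 11 of 100, where other LW pigs ranged from 7 to 27. Pigs B A 15 and LW A 18, left out of both ranges, were nearer to the B mean on 62 and 58 of 100. On the 6 other probes with no overlap of the breeds, B C pig 2 was never on the LW side. LW A pig 19 was on the B side on 1 of them, BM481989.1_3008, named after its values were seen, with a log2 ratio of 0.0095. On this probe the other LW pigs reached at most -0.031 and the other B pigs were at 0.0013 or above.

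**Figure D3:**
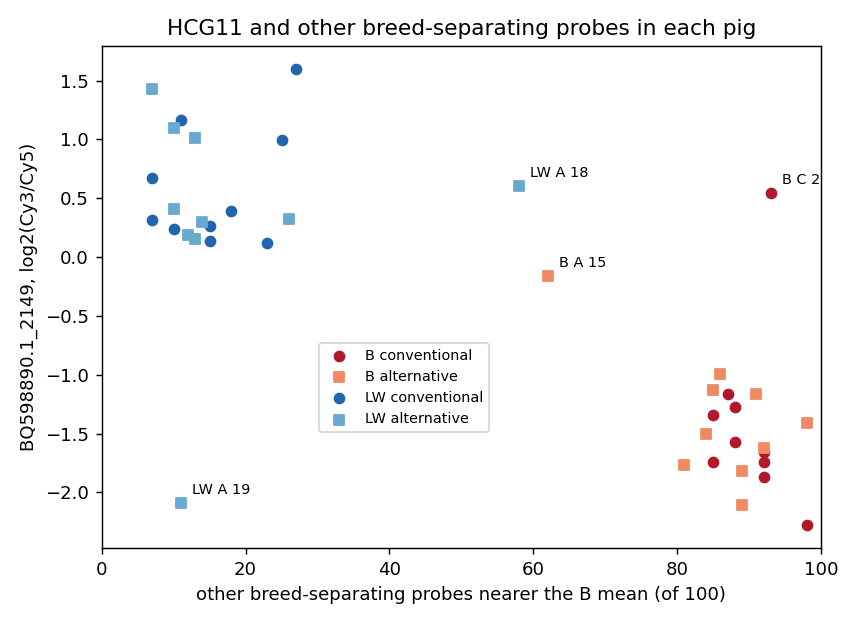
Log2 ratio of BQ598890.1_2149 (y axis) against the number of 100 other breed-separating probes on which a pig was nearer to the B mean (x axis). Each point is 1 of 40 pigs. B C pig 2 has 93 such probes beside an HCG11 value of 0.55, and LW A pig 19 has 11 beside -2.09.

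These pigs also lay far from their group on other probes, as all pigs did on some. Of the 12222 tested probes, B C pig 2 was far above its group on 40 and far below it on 19. For LW A pig 19 the counts were 4 above, fewer than in any of the 36 other pigs, and 25 below. Only the highest pig of a group can count as far above it, and LW A pig 18 did so on 1434 probes. Counts above in LW A pigs are thus not on the same footing as those of other groups. The medians of the 36 other pigs were 25 above and 21 below. The 40 and 25 probes had the 2 HCG11 probes in common, and no other. HCG11 is in both sets through the values by which it was chosen. The share of tested probes on which any pig lay far from its group was 6.99% in B C, 16.3% in B A, 12.1% in LW C and 15.6% in LW A pigs. The shares of the A groups rest largely on the arrays that stood apart. B A pig 15 was far below on 1440 of the 1993 such probes in B A pigs. LW A pig 18 was far above on 1434 of the 1905 in LW A pigs.

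The spread of HCG11 within groups was wide, also without the outlying pigs. The SD within groups was 0.72 on BQ598890.1_2149 and 0.65 on BQ598890.1_2069, beside a median of 0.18 over the tested probes. It was larger on 0.393% and 0.695% of tested probes, respectively. Without the outlying pigs the SDs were 0.47 and 0.45, and 2.41% and 2.84% of tested probes had a larger one. Without all 4 pigs they were 0.43 and 0.43, beside a median of 0.16, and 3.04% and 3.20% of probes had a larger one. LW pigs other than pig 19 ranged over more than a log2 unit, with the highest values in LW C pig 8 (1.60 and 1.37) and LW A pig 16 (1.43 and 1.19), and the lowest in LW C pig 3 (0.12 and 0.054). High and low LW pigs were thus found in both housing systems. In B pigs the lowest values were those of B C pig 9 (-2.28 and -2.22) and B A pig 16 (-2.11 and -2.28).

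Whether housing moved HCG11 was tested with limma, with BH adjustment over 12222 probes. In B pigs, A minus C was 0.11 on BQ598890.1_2149 (SE 0.33, 95% confidence interval -0.56 to 0.77, adjusted P = 0.999) and 0.098 on BQ598890.1_2069 (SE 0.30, interval -0.51 to 0.70, adjusted P = 0.999). In LW pigs it was -0.26 (SE 0.34, interval -0.95 to 0.42, adjusted P = 1) and -0.25 (SE 0.31, interval -0.87 to 0.38, adjusted P = 1). The interaction of breed and housing was 0.37 (SE 0.46, interval -0.57 to 1.31, adjusted P = 0.972) and 0.35 (SE 0.42, interval -0.51 to 1.20, adjusted P = 0.972). No difference passed the threshold, and each interval reaches at least 0.38 on either side of 0. Of all tested probes, 0 (0%) passed for housing in B, in LW or for the interaction by limma, and 300, 357 and 317 had an unadjusted P value under 0.05.

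Single pigs set the sign of these housing differences. Without LW A pig 19 the difference in LW pigs was 0.082 on BQ598890.1_2149 and 0.053 on BQ598890.1_2069 (adjusted P = 0.997 for both), and the interaction was 0.036 and 0.052. Without B C pig 2 the difference in B pigs was 0.30 and 0.27 (adjusted P = 0.999 for both), and without B A pig 15 it was -0.075 and -0.045 (adjusted P = 1 for both). Without all 4 pigs it was 0.20 and 0.20 in B and 0.041 and 0.0064 in LW pigs. Within 6 slides that held both systems, A minus C on BQ598890.1_2149 ranged from -1.45 to 0.81 in B pigs, with 4 above 0, and from -2.76 to 0.76 in LW pigs, with 2 above 0.

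The probes ran in parallel over the pigs of each breed. Pearson's r was 0.979 and Spearman's rho 0.959 in B pigs (n = 20), and 0.997 and 0.976 in LW pigs (n = 20). Each of the 4 values had a permutation P of 1e-05, two-sided, the smallest that 100000 resamples can give, and an adjusted P of 1e-05. Probes of 1 contig mostly run together on the same arrays (median r of 0.803 in B and 0.864 in LW pigs). A small P value was thus likely beforehand and says little about HCG11. The values of r and rho above include the pigs by which the contig was chosen. Without B C pig 2 and LW A pig 19, r was 0.962 in B and 0.993 in LW pigs, each with a permutation P of 1e-05. Without the 2 pigs farthest from the median of BQ598890.1_2149, r was 0.96 in B pigs (without B C pig 2 and B A pig 15) and 0.99 in LW pigs (without LW A pig 19 and LW C pig 8). Within housing systems r was 0.991 in B C, 0.954 in B A, 0.996 in LW C and 0.998 in LW A pigs. No slide held 6 pigs of a breed, and within scan days 2 and 3 r ranged from 0.951 to 0.999. The breeds form separate clusters, so no r was taken over both.

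**Figure D4:**
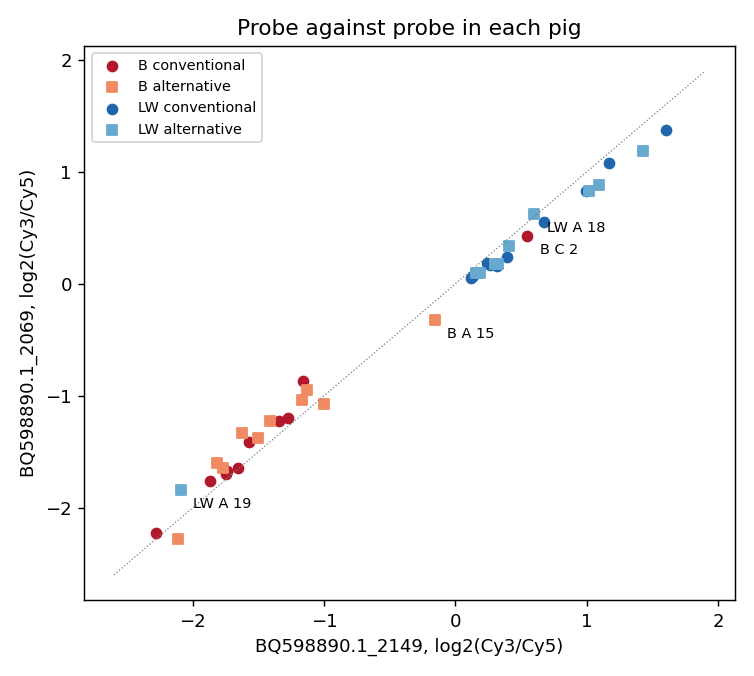
Log2 ratio of pig over pool on BQ598890.1_2069 (y axis) against BQ598890.1_2149 (x axis) in each of 40 pigs, by breed and housing system. The dotted line marks equal values, and the pigs follow it with r of 0.979 in B and 0.997 in LW pigs.

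Other contigs with more than 1 tested probe give a scale for this. Over 885 pairs of tested probes on 863 contigs, the median r was 0.803 in B pigs (quartiles 0.557 and 0.937) and 0.864 in LW pigs (quartiles 0.633 and 0.954). The HCG11 pair ranked 72 in B and 2 in LW pigs from the highest. These ranks rest in part on the pigs by which the contig was chosen, and without B C pig 2 and LW A pig 19 they were 135 in B (r = 0.962) and 24 in LW pigs (r = 0.993). Without the arrays that stood apart as well, they were 145 in B (r = 0.96) and 7 in LW pigs (r = 0.996). These are ranks over pairs that differ in their spread among pigs, and they are given as a description.

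The difference between the probes was at most 0.29 in size with the background correction used here. It depended on that choice, and was at most 0.24 without correction, 0.75 with plain subtraction, 0.99 with processed signals and 1.00 in the series matrix, the last 3 in LW A pig 19. BQ598890.1_2149 minus BQ598890.1_2069 was -0.084 ± 0.13 in B pigs and 0.10 ± 0.11 in LW pigs (SD, n = 20 each). The mean of B pigs changed with the same choice, from 0.0011 without correction to -0.28 with plain subtraction, -0.39 with processed signals and -0.37 in the series matrix, while that of LW pigs stayed between 0.068 and 0.12. Opposite signs of the breeds were thus not found without correction, where 12 of 20 B pigs were above 0. The values that follow are those with the correction used here. The difference was 0.12 in B C pig 2, where the other B C pigs ranged from -0.29 to -0.014. It was -0.25 in LW A pig 19, where the other LW A pigs ranged from -0.027 to 0.24. In all, 4 of 20 B pigs were above 0, B C pig 2 with 3 B A pigs, and 2 of 20 LW pigs below 0, both of the A system. The highest B value was 0.17, in B A pig 16, a pig with low levels on both probes. Between housing systems the difference changed by 0.012 in B pigs (SE 0.057, interval -0.10 to 0.13, adjusted P = 0.997) and by -0.014 in LW pigs (SE 0.058, interval -0.13 to 0.10, adjusted P = 0.998) in limma over the 885 pairs. Of these pairs, 0 (0%) passed in either breed, and 28 and 21 had an unadjusted P value under 0.05.

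Probes of other contigs that moved with BQ598890.1_2149 from pig to pig were sought over all 40 pigs, as deviations from the mean of each group of 10. The highest Spearman's rho was 0.648 for BM485047.1_1838 of TOE1, a nuclear enzyme that trims the tails of small RNAs (Pearson's r = 0.639). It was 0.589 without both outlying pigs and 0.686 without the arrays that stood apart. BQ602448.1_2426 followed with 0.63, and the other 3 of the highest 5 ranged from 0.571 to 0.607. The lowest values were -0.671 for CJ029120.1_708 and -0.634 for CB482089.1_1959, and the other 3 ranged from -0.612 to -0.601. For comparison, the middle 95% of 12220 probes lay between -0.385 and 0.37, and BQ598890.1_2069 had 0.98. These probes were picked as the extremes of all probes and carry no test. On BM485047.1_1838 B C pig 2 had 0.064, beside a median of -0.46 in B pigs, and LW A pig 19 had -0.58, beside a median of -0.24 in LW pigs.

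Genes near HCG11 and genes of antigen presentation could be named for few probes. The scanner output holds no gene symbols, and symbols were taken from the study's list of probes higher in LW pigs, which named 683 tested probes, all with a difference below 0. This list was chosen on these same pigs, so the direction and counts below are not independent evidence. Of 683 probes with a symbol, 506 (74.1%) passed as lower in B pigs, beside the 21.2% of all tested probes that passed in either direction.

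Among 54 listed neighbours of HCG11 in the extended MHC, 1 gene was found, HFE, which regulates the uptake of iron, with 2 probes. Neither passed, with B minus LW of -0.12 on BE232472.1_479 (adjusted P = 0.0544) and -0.18 on BI341423.1_396 (adjusted P = 0.0729) in limma. Without the arrays that stood apart the first had -0.14 and passed (adjusted P = 0.0136), and 1 HFE probe also passed without LW A pig 18 alone or without LW A pig 19. Among 125 listed genes of the classical region, 5 were found and 3 passed. These were DDR1, a receptor for collagen, with -0.78 (adjusted P = 1.41e-05), DHX16, an RNA helicase of splicing, with -0.35 (adjusted P = 0.000207), and PRR3 with -0.20 (adjusted P = 0.00172). TRIM39 had -0.18 (adjusted P = 0.0507) and TUBB, a tubulin, -0.19 (adjusted P = 0.225), and neither passed. Without B C pig 2 or without LW A pig 19, 4 of these 5 genes passed. Of 18 listed genes of antigen presentation, PSME1 and PSME2, the subunits of the proteasome activator, were found, with -0.23 (adjusted P = 0.0172) and -0.30 (adjusted P = 0.00908).

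On these genes each outlying pig was set against the other 19 pigs of its breed. DDR1 was at -0.080 in B C pig 2, where the other B pigs ranged from -1.32 to 0.19, and at 0.089 in LW A pig 19, where the other LW pigs ranged from -0.74 to 1.03. PSME2 was at -0.19 in B C pig 2, marginally above all other B pigs, and PRR3 at 0.57 in LW A pig 19, above all other LW pigs (at most 0.56). On the other MHC and antigen presentation probes named here both pigs lay within the range of the other pigs of their breed. From pig to pig within groups, Spearman's rho with BQ598890.1_2149 was 0.399 for DDR1, 0.271 for DHX16, and between -0.132 and 0.184 for PRR3, TRIM39, TUBB, PSME1 and PSME2. It was -0.298 and -0.106 for the HFE probes.

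Markers of muscle and of other cells were compared between breeds and in the outlying pigs. All named markers come from the list of probes higher in LW pigs, so the direction of their differences is no independent evidence. In limma, 1 of 4 muscle probes passed as lower in B, MYH1 with -0.66 (adjusted P = 0.00159), and 1 of 3 connective tissue probes, the first of COL1A2 with -0.49 (adjusted P = 0.0334). Neither blood probe passed, with a median difference of -0.42. The mean log2 ratio of the 2 probes of HBA2, a globin of red blood cells and the single gene found of 18 markers of blood and immune cells, was 0.14 in B C pig 2, within the range of the other B C pigs (-1.93 to 0.84). In LW A pig 19 it was -1.54, from 1 probe, as the spot of the other was marked as an outlier, and below the other LW A pigs (-1.31 to 0.72). Spearman's rho of these probes with BQ598890.1_2149, as deviations from the group means, was 0.382 and 0.264 over the 40 pigs. It was -0.442 and -0.36 for the 2 probes of COL1A2, a chain of fibrillar collagen, and -0.172 for DCN. The first probe of each of HBA2 and COL1A2 thus lay outside the middle 95% of all probes given above. Without the arrays that stood apart they had 0.378 and -0.47, beside a middle 95% of -0.39 to 0.399, so HBA2 then lay inside. Without both outlying pigs, for which no middle 95% is given, they had 0.324 and -0.438. For the muscle probes rho was between -0.073 and -0.000188. For the 3 probes of connective tissue (COL1A2 and DCN, 2 genes of 10 listed) the mean was -0.40 in B C pig 2 and 0.15 in LW A pig 19, and for the 4 muscle probes (4 genes of 17 listed) -0.34 and -0.16, all within the range of the other pigs of their group. Single probes could differ from these means, and MYH1 was at -0.33 in B C pig 2, above the other 19 B pigs (at most -0.47). No symbol was found for any of 9 markers of fat cells, where the list of probes higher in B pigs could not be used for names. The part of blood, connective tissue or other cells in the HCG11 values was not tested.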

How the data were processed

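Spot intensities of 40 arrays were used as the authors deposited them from Agilent Feature Extraction, on a linear scale before normalization. Log2 ratios of the series matrix, also deposited by the authors, served as an alternative. Their direction of pig over pool was found from the scanner values, column medians lay between -0.015 and 0.026, and the methods describe centring on the median within chips and Rquantile scaling between chips. Which of their steps the deposited columns include was not stated. Columns that could not be mapped to a sample numbered 0.

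With limma 3.58.1 (R 4.3.3), background was corrected by normexp with an offset of 50, log2(Cy3/Cy5) was taken, and each array was centred on its median over gene probes. Saturated spots stayed in, whereas controls and outlier spots of the scanner software were removed. Testing needed a Cy3 signal well above background for 10 or more pigs of either breed, which held for 12222 of 15198 probes. The model (lmFit, eBayes) held the 4 groups and slide, with BH adjustment over all tested probes and a threshold of 0.05. For HCG11, housing and interaction were its tests, and listed genes were also tested between breeds. Pairs of probes of 1 contig were fitted the same way. Correlations were tested by permutation of pairings. The programs were tested on simulated data. The members and lists were chosen with earlier results of these data known. The rule for named genes took the HCG11 probes, called genes of the MHC lists, and the 5 probes most like and most unlike BQ598890.1_2149. HFE, TRIM39, TUBB, the markers and BM481989.1_3008 fall outside it and were named after their values were seen. Symbols came from the study's list of genes higher in LW pigs. Its companion list for B pigs was not used, as its probe column appears out of step with its symbols. Of 37 contigs with several named probes there, 0 had a single symbol, beside 40 of 40 in the LW list. Alternatives covered background correction, normalization, Cy3 alone, the series matrix, spot marks, the filter on dim probes, slide, array weights, the replicate number as a block and the outlying pigs. The number of arrays limits the precision.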

Additional observations from a re-analysis of the deposited data

Results flagged for a closer look

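Each probe and the difference between the probes were examined in the 4 groups of 10 pigs for a highest or lowest pig whose gap to the next, as a share of the whole range, passed Dixon's critical value of 0.466. Of 12 such examinations 4 passed. Chance gives about 1 in 20, but the contig was chosen with these pigs in view, so the count is no test. Over all tested probes the share with such a pig was between 6.99% (B C) and 16.3% (B A). In the A groups most of these probes come from the arrays that stood apart, so their shares are a poor scale for LW A pig 19. B C pig 2 was the highest of its group with a share of 0.604 on BQ598890.1_2149 and 0.489 on BQ598890.1_2069. LW A pig 19 was the lowest of its group with 0.639 on BQ598890.1_2149 and 0.639 on BQ598890.1_2069. The probes follow each other closely from pig to pig, so that these are 2 pigs seen on both probes rather than 4 separate findings.

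B A pig 15 was the highest of its group without passing, with shares of 0.43 and 0.316. In the difference between the probes, LW A pig 19 was lowest with 0.462, just under the critical value, and B C pig 2 highest with 0.316. A cause of the values of these pigs was not tested.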

How the results depend on the processing

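Of 350 values recomputed under 16 alternatives and 5 more chosen after seeing the data, 321 kept their direction and side of the threshold, stayed within 1 SD within groups (breed differences) or within 1.5 times (counts). The breed difference stayed between -2.46 and -1.58 on BQ598890.1_2149 and between -2.00 and -1.47 on BQ598890.1_2069. No housing difference or interaction of HCG11 passed, with adjusted P values of at least 0.911. Limma called 0 probes for housing under 20 alternatives and 0 for the interaction under 21, where 169 to 604 probes had unadjusted P values below 0.05. The replicate block gave no housing difference within a breed. The r between probes was 0.96 to 0.99 in B and 0.993 to 0.998 in LW pigs.

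Signs of differences near 0 turned. When pigs B C 2, LW A 19, B A 15 and LW A 18 were left out in turn, A minus C in LW pigs ranged from -0.30 to 0.082 (BQ598890.1_2149) and from -0.28 to 0.053 (BQ598890.1_2069), and in B pigs from -0.075 to 0.30 and from -0.045 to 0.27. For the difference between the probes, A minus C ranged from -0.030 to 0.033 in B and from -0.018 to 0.029 in LW pigs. In LW pigs A minus C was 0.052 and 0.026 without both outlying pigs, and 0.026 for the difference between the probes. Without all 4 pigs it was 0.041 and 0.0064, and 0.034 for that difference. In B pigs A minus C was -0.077 and -0.049 without both arrays that stood apart, and -0.028 for the difference between the probes. A minus C of that difference was also -0.011 with loess and -0.040 with Cy3 alone in B pigs. In LW pigs it was 0.014 without background correction. The cause was not tested, except that leaving out a pig removes its value.

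HFE probes passing between breeds, 0 of 2 above, numbered 1 with plain subtraction, 2 with processed signals, loess, Cy3 alone, the series matrix or array weights, and 1 without both arrays that stood apart, without all 4 pigs or with the sign of LW A pig 18 turned (0 to 1 when pigs were left out in turn). The classical MHC count, 3 above, was 4 under 10 of 21 alternatives. The cause was not tested.

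No pairing of B and LW pigs by the replicate number was apparent. Deviations of same-numbered pigs correlated over probes between -0.359 and 0.343 (median -0.018), with 3 of 20 pairs over 0.1. With the replicate block the breed differences were -1.85 and -1.67, the interaction was 0.29 and 0.25 (adjusted P = 0.911 and 0.918), 0 probes were called for the interaction (535 unadjusted), and 0, 3 and 2 probes of the extended MHC, classical MHC and antigen presentation lists passed between breeds.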
